A study of Mus musculus with 357 samples.

Results

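The CIP/KIP family of cell cycle inhibitors was examined in single mouse hematopoietic stem cells (HSCs) by the assays for Cdkn1a, Cdkn1b and Cdkn1c, which encode p21, p27 and p57. These are all 3 members of the family, and they were 3 of the 96 assays run on each cell. CIP/KIP proteins bind cyclin-CDK complexes, and above all they restrain CDK2, the kinase that carries a cell into S phase. p21 is best known as a target of p53, p27 is largely controlled by degradation of the protein, and p57 is made from the maternal allele of an imprinted gene. In the bone marrow all of them are studied as brakes that keep stem cells out of the cycle, with p57 prominent in resting HSCs.

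All cells came from mice of the genotype Col1a1-tetO-H2B-mCherry, in which a fluorescent histone had been induced as a label that is diluted at each division. They were sorted as Lin-Sca1+c-kit+CD48-CD150+ after a chase of 2 weeks (90 cells on plate 1 and 93 on plate 2) or 5 weeks (91 cells on plate 1 and 83 on plate 2), 357 cells in all. The sources used here do not give the driver of the tetO promoter, the age of the mice or the number of animals. The label intensity of a single cell was not used here, so cells are compared by chase time and not by their own number of divisions. A chase time therefore counted as 1 sample and no test was made between the times. Each plate held 1 chase time, so plate and chase time cannot be told apart, and the plates of a time may be technical repeats.

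The measurement was a threshold cycle (Ct), the PCR cycle at which a product is seen, so that a lower Ct means more template. A product at Ct 25 or below was called detected. A reaction without product does not show that a cell lacked the transcript, because reverse transcription from 1 cell can miss rare molecules. Assays also differ in sensitivity, so shares of different genes are not a ranking of their abundance. The plates of an assay are called apart where neither 2-week plate reached the values of the 5-week plates, which lay on the same side of both. Intervals are exact Clopper-Pearson 95% intervals, and they cover counting error only.

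The wells of the times differed in how early and how many products were seen. The mean Ct of 14 reference assays found in nearly every cell was 13.45 ± 0.53 (SD over cells) at 2 weeks and 12.96 ± 0.65 at 5 weeks. A 5-week cell had 4.22 more detected assays on average. Of the genes behind the sort, Kit was detected in 98.9% and 99.4% of cells, Ly6a in 91.3% and 73%, and Slamf1 in 72.1% and 55.7%, while the excluded marker Cd48 was found in 2 and 3 cells. Of these 4 genes Ly6a and Slamf1 were lower at 5 weeks with plates apart, and 2 overlapped. Over all 96 assays 7.29% were lower with plates apart. Of 2 measured genes that were not part of the sort, Cd34 was higher at 5 weeks with plates apart, at 60.7% and 77%. Flt3 overlapped, at 47% and 47.1%. Among all 96 assays 42.7% were higher with plates apart. Flt3 products later than Ct 18 made up 2.33% at 2 weeks and 35.4% at 5 weeks. Whether the sorted cells of the times differed in make-up was not tested. Markers of mature blood (12 listed) and of endothelium or stroma (6 listed) were not among the assays, so no such check was made.

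The 3 inhibitors did not move as a block between the chase times. Cdkn1b and Cdkn1c were detected in more cells at 5 weeks and Cdkn1a in fewer, and the plates were apart for each of them. Over all 96 assays 42.7% were apart with more cells at 5 weeks and 7.29% with fewer, so a gain with plates apart was common and a loss was not. The median difference over all assays was 2.85 percentage points, beside 37.7 for Cdkn1b, 7.77 for Cdkn1c and -9.15 for Cdkn1a.

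**Figure D1:**
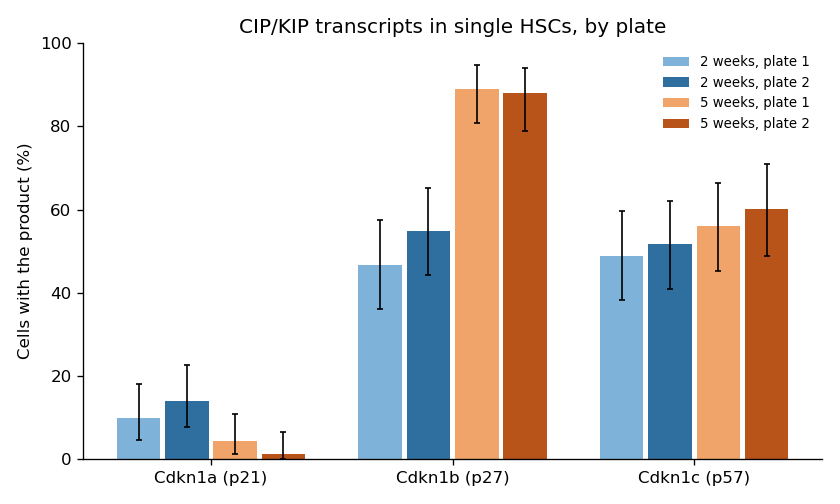
Share of cells with a product of Cdkn1a, Cdkn1b or Cdkn1c (vertical axis, percent of the cells of a plate) on the 4 plates, with exact 95% intervals as error bars. The 5-week plates stand at 89% and 88% for Cdkn1b, above both 2-week plates, and at 4.4% and 1.20% for Cdkn1a, below both.

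Cdkn1b passed from a product found in about as many cells as not to one found in nearly all. At 2 weeks it was detected in 42 of 90 cells on plate 1 (46.7%, interval 36.1 to 57.5%) and in 51 of 93 on plate 2 (54.8%, 44.2 to 65.2%). At 5 weeks the counts were 81 of 91 (89%, 80.7 to 94.6%) and 73 of 83 (88%, 79 to 94.1%). The 4 comparisons of a 5-week with a 2-week plate lay between 33.1 and 42.3 points, and all of them exceeded the gap between plates of the same time. Only 10 cells on each 5-week plate had no product.

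In the cells that had it, the level of Cdkn1b depended on the scale. Its Ct ran from 13.2 to 21.3 at 2 weeks with a median of 16.7, and from 13.3 to 24.2 at 5 weeks with a median of 15.95. Level is given here in log2 units, with the gene's Ct taken from the mean Ct of the reference assays in that cell. It was -3.30 ± 1.09 (SD, n = 93 cells) at 2 weeks and -3.23 ± 1.26 at 5 weeks (n = 81 cells on plate 1 and 73 on plate 2). The difference of 0.07 had plate comparisons from -0.22 to 0.33, and the plates overlapped. Its sign was not settled, since it was -0.11 without 5-week plate 1, -0.03 without 2-week plate 2, 0.24 without 5-week plate 2 and -0.02 without the cell cycle genes among the reference assays. Without centring the difference was 0.50, and with centring on Actb and Gapdh it was 0.53, with plates apart in both cases.

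Cdkn1c was detected in 44 of 90 and 48 of 93 cells at 2 weeks, 48.9% (38.2 to 59.7%) and 51.6% (41 to 62.1%) of the plates. At 5 weeks it was detected in 51 of 91 and 50 of 83 cells, 56% (45.2 to 66.4%) and 60.2% (48.9 to 70.8%). The plates were apart, but the nearest pair lay only 4.43 points apart and the intervals of all 4 plates overlapped. Products later than Ct 18 made up 10 of 92 Cdkn1c products at 2 weeks (10.9%) and 20 of the 51 and 50 at 5 weeks (19.8%). Counted at Ct 18 or below, the difference in share was 1.74 points and the plates overlapped.

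The level of Cdkn1c in detecting cells, centred on the reference assays, was lower at 5 weeks. It was -3.41 ± 1.02 (SD, n = 92 cells) at 2 weeks and -3.97 ± 1.81 at 5 weeks (n = 51 cells on plate 1 and 50 on plate 2). The difference was -0.56, and the single pairs of plates gave -0.62 to -0.50. Without centring the difference was -0.050 and the plates overlapped. The spread over cells was wider at 5 weeks, where the Ct reached 24.4, against 18.97 at 2 weeks. The median Ct, without centring, was 16.9 at 2 weeks and 16.6 at 5 weeks. Restricted to products at Ct 18 or below, the difference in level was -0.14, with plates still apart. Of the 2 inhibitors with enough detecting cells for a level, 0 were higher and 1 was lower with plates apart, beside 30% and 43.8% of the 80 assays with a level.

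The centring moved all levels together and so has to be read with them. The median level difference over the 80 assays was -0.13 when the 14 reference assays were used, 0.37 when nothing was taken off and 0.25 when Actb and Gapdh alone were used. The counts of assays higher and lower with plates apart were 24 and 35, 49 and 6, and 45 and 9 in the same order. Relative to those medians Cdkn1b stood at 0.21, 0.14 and 0.28, and Cdkn1c at -0.43, -0.42 and -0.45. Ccnd2, CDK4 and Trp53 are cell cycle genes among the 14, and without them Cdkn1b stood at 0.21 and Cdkn1c at -0.44 relative to the median.

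**Figure D2:**
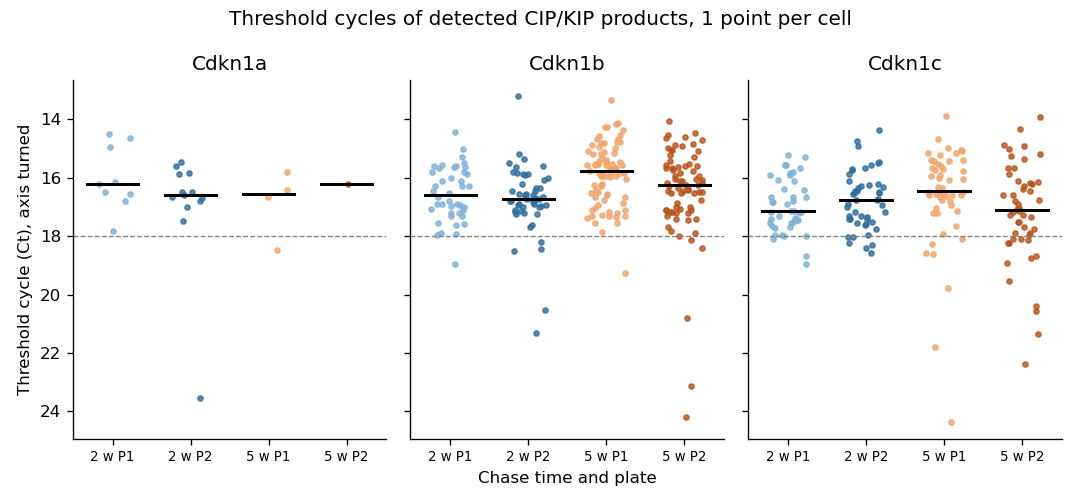
Ct of each detected product (vertical axis turned so that more product is higher) by chase time and plate, with 1 point per cell, the median as a black line and Ct 18 as a dashed line. Cdkn1b has many more points at 5 weeks, with a median Ct of 15.95 against 16.7 at 2 weeks, Cdkn1c has a longer tail of late products at 5 weeks, and Cdkn1a has 22 points at 2 weeks and 5 at 5 weeks.

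Cdkn1a was seen in the fewest cells of the family at both times. It was detected in 9 of 90 and 13 of 93 cells at 2 weeks, 10.0% (4.68 to 18.1%) and 14% (7.66 to 22.7%) of the plates. At 5 weeks it was detected in 4 of 91 and 1 of 83 cells, 4.4% (1.21 to 10.9%) and 1.20% (0.03 to 6.53%). The share at 5 weeks was 0.24 times that at 2 weeks, and the plate comparisons ran from -12.8 to -5.60 points. The intervals of single plates overlapped in part, and 5 cells carry the whole 5-week value.

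Most Cdkn1a products came before Ct 18. At 2 weeks their Ct ran from 14.5 to 23.5 with a median of 16.5, and 1 of the 22 was later than Ct 18. The 5 products at 5 weeks had a Ct of 15.8, 16.4, 16.7 and 18.5 on plate 1 and 16.2 on plate 2, so 1 of the 5 was later than Ct 18. These 5 lay within the range of the 2-week cells. With fewer than 10 detecting cells on 3 of the plates, no difference in level was formed for Cdkn1a.

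At 2 weeks Cdkn1b and Cdkn1c were found in nearly the same share of cells, 50.8% and 50.3%, closer to each other than the plates of either gene. At 5 weeks they stood at 88.5% (82.8 to 92.8%) and 58% (50.3 to 65.5%). On each plate Cdkn1a lay below both, and its interval did not reach theirs.

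The combinations of products in single cells followed the share of Cdkn1b. At 2 weeks the cells spread almost evenly over 4 classes without Cdkn1a. There were 40 cells with none of the inhibitors (21.9%), 40 with Cdkn1c alone (21.9%), 42 with Cdkn1b alone (23%) and 39 with Cdkn1b and Cdkn1c together (21.3%). At 5 weeks the same classes held 11 (6.32%), 9 (5.17%), 60 (34.5%) and 89 cells (51.1%). The class with both products held 18.9% and 23.7% of the 2-week plates and 50.5% and 51.8% of the 5-week plates.

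The cells without any CIP/KIP product made up 26.7% and 17.2% of the 2-week plates against 7.69% and 4.82% of the 5-week plates. Cells with Cdkn1c alone made up 22.2% and 21.5% against 3.30% and 7.23%. Both classes were therefore smaller at 5 weeks with plates apart, and the 2 classes led by Cdkn1b were larger with plates apart. At Ct 18 or below the classes with none, Cdkn1c alone, Cdkn1b alone and both held 49, 37, 42 and 34 cells at 2 weeks and 16, 11, 75 and 68 at 5 weeks. The order of the last 2 classes at 5 weeks thus depended on the late products.

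All 3 products were seen together in 7 cells at 2 weeks (3.83%) and 3 at 5 weeks (1.72%). Each of the 5 Cdkn1a cells at 5 weeks also had Cdkn1b, and 3 of them had Cdkn1c. Cdkn1a without Cdkn1b was found in 10 cells at 2 weeks and in 0 at 5 weeks, where a count of 0 allows a share of up to 1.72% by a limit of 3 counts and 2.1% by the exact interval. With 88.2% of the cells that lacked Cdkn1a also having Cdkn1b at 5 weeks, 5 of 5 is not a difference that can be read at this number.

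**Figure D3:**
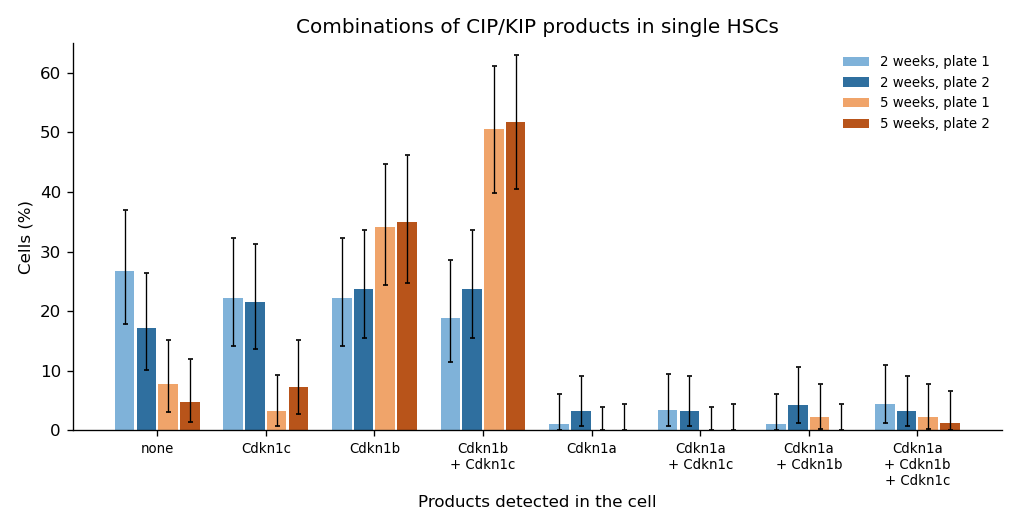
Share of the cells of each plate (vertical axis, percent) with each of the 8 combinations of detected Cdkn1a, Cdkn1b and Cdkn1c products, with exact 95% intervals. The class with Cdkn1b and Cdkn1c holds 50.5% and 51.8% of the 5-week plates, and the classes with none and with Cdkn1c alone are lower there than on both 2-week plates.

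The presence of Cdkn1b said little about Cdkn1c in the same cell on 3 of the 4 plates. At 2 weeks Cdkn1c was detected in 49.5% of the 93 cells with Cdkn1b (38.9 to 60.0%) and in 51.1% of the 90 cells without it (40.3 to 61.8%). At 5 weeks the shares were 59.7% of the cells with Cdkn1b (51.5 to 67.6%) and 45% of the 20 without it (23.1 to 68.5%). By plate, the share of Cdkn1c in cells with and without Cdkn1b was 50% and 47.9% on 2-week plate 1, and 49% and 54.8% on plate 2. It was 59.3% and 30.0% on 5-week plate 1, and 60.3% and 60.0% on plate 2. Only 5-week plate 1 had a wide gap, and 3 of 10 cells make up its lower value. Spearman's rho of the 2 assays, with undetected reactions placed at the Ct limit, was 0.01, 0.10, 0.24 and -0.01 on the 4 plates (Pearson's r 0.02, 0.00, 0.23 and -0.06).

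Cdkn1a joined either partner in a like share of cells at 2 weeks. Cdkn1b was detected in 12 of the 22 cells with Cdkn1a (54.5%, 32.2 to 75.6%) and in 50.3% of those without it (42.3 to 58.3%). Cdkn1c was detected in 13 of the 22 (59.1%, 36.4 to 79.3%) and in 49.1% of the others (41.1 to 57.1%). The 2 plates gave different directions for Cdkn1c, with 77.8% and 45.7% on plate 1 and 46.2% and 52.5% on plate 2.

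The mean reference Ct, used here as a stand-in for the cDNA in a well, differed between the chase times. The shares were therefore also read at a like reference Ct. The reference assays did not move alike, with a level difference of -0.69 for CDK4 and 0.95 for Nfe2. Whether cDNA amount or the expression of these genes differed between the times was not tested. Cells with Cdkn1b had a lower mean reference Ct than cells without it on each plate, by 0.25, 0.11, 0.12 and 0.28 cycles. For Cdkn1c the sign varied, with 0.05, -0.08, -0.31 and 0.20 cycles in cells with it minus cells without it. Cells with Cdkn1a also had a lower reference Ct on each plate, by 0.05 to 0.43 cycles. When all cells were put into 3 bins of equal size by reference Ct, the bins were parted at 12.98 and 13.47 cycles. The bins are called most, middle and least cDNA below, by this Ct alone.

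Cdkn1b was detected in more cells at 5 weeks in each bin. With the most cDNA it was found in 70.4% of the 27 2-week cells (49.8 to 86.2%) and 90.2% of the 92 5-week cells (82.2 to 95.4%). In the middle bin the shares were 48.5% of 68 (36.2 to 61%) and 88.2% of 51 (76.1 to 95.6%), and with the least cDNA 46.6% of 88 (35.9 to 57.5%) and 83.9% of 31 (66.3 to 94.5%). The plates were apart in every bin. With the mean reference Ct of the cell as a covariate in a logistic fit, the difference was 32.9 points.

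Cdkn1a was detected in fewer cells at 5 weeks in each bin, again with plates apart. The shares were 25.9% and 5.43% with the most cDNA, 11.8% and 0% in the middle, and 7.95% and 0% with the least. The counts of 0 were out of 51 and 31 cells, which allow shares of up to 5.88% and 9.68% by a limit of 3 counts, and 6.98% and 11.2% by the exact interval. The bin with the most cDNA held only 10 and 17 of the 2-week cells, of which 1 and 6 had Cdkn1a, and 2-week plate 1 lay close to 5-week plate 1 there (10.0% and 7.41%). A logistic fit that took in the reference Ct gave a difference of -12.8 points.

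For Cdkn1c the direction was not the same in each bin. It was detected in 40.7% and 62% of cells with the most cDNA, 58.8% and 52.9% in the middle bin, and 46.6% and 54.8% with the least. The plates were apart only in the bin with the most cDNA, where the 2-week cells numbered 27. The logistic fit with the reference Ct gave 6.42 points, and the fit with the number of other detected assays gave 3.71.

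**Figure D4:**
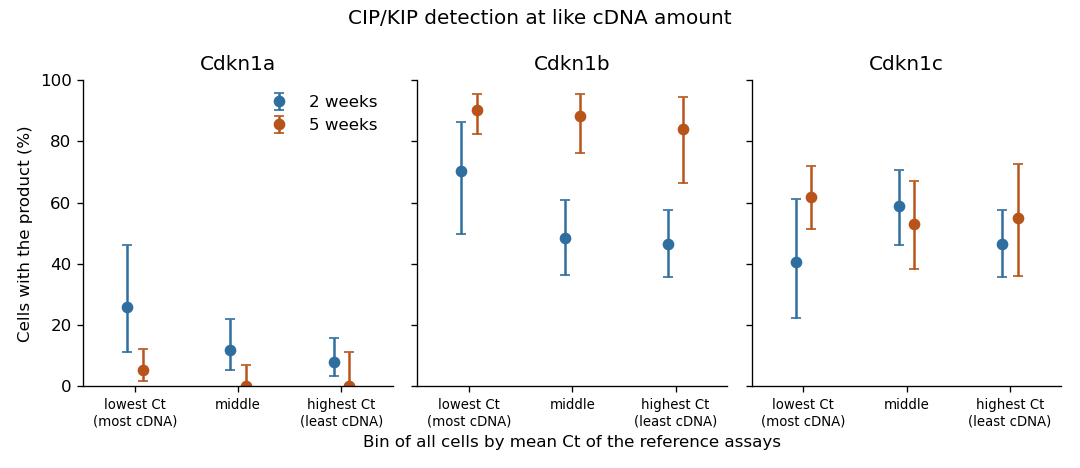
Share of cells with each product (vertical axis, percent) at 2 and 5 weeks within 3 equal-sized bins of the mean reference Ct, with exact 95% intervals. The bins run from the lowest Ct (labelled most cDNA) to the highest (labelled least cDNA). Cdkn1b is higher and Cdkn1a lower at 5 weeks in each bin, while the order of the times turns in the middle bin for Cdkn1c.

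Cells with more inhibitor products also had more other assays detected on average. At 2 weeks cells with 0, 1, 2 and 3 inhibitor products had on average 52.5, 53.3, 54.4 and 54.7 other assays detected, and at 5 weeks 55.3, 56.1, 58.4 and 59. The SD over cells with 1 product was 4.86 at 2 weeks and 6.21 at 5 weeks, and only 7 and 3 cells had 3 products. In the same order the mean reference Ct was 13.55, 13.51, 13.28 and 13.35 at 2 weeks. It was 13.22, 12.98, 12.92 and 12.63 at 5 weeks. The part of the reference Ct in the shift between combinations was not tested beyond the bins above.

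The kinases and cyclins that CIP/KIP proteins bind were read beside the inhibitors. Of 11 such genes on the list 7 were measured, and 3 were higher at 5 weeks with plates apart, 0 lower and 4 overlapping, with a median difference of 3.78 points. That is close to the 42.7% of all 96 assays that were higher with plates apart. CDK2, the kinase most directly held by p21 and p27, was detected in 54.6% and 73.6% of cells. Ccnd1, which encodes cyclin D1, was detected in 43.7% and 63.2%, and Ccnd3, another D-type cyclin, in 90.2% and 98.3%. Many Ccnd1 products came later than Ct 18, 83.8% at 2 weeks and 49.1% at 5 weeks. Ccne1, the cyclin E partner of CDK2, was detected in 12.6% and 10.9%. CDK4 and Ccnd2 were found in every cell, and CDK6 in 84.2% and 87.9% with plates overlapping.

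Of the INK4 inhibitors and pocket proteins, 6 of 7 listed genes were measured, and 1 was higher with plates apart, 0 lower and 5 overlapping. Over all 96 assays 42.7% were higher and 7.29% lower with plates apart. The INK4 family blocks CDK4 and CDK6 and does not bind CDK2. Cdkn2d, which encodes p19, was the gene with plates apart, at 68.9% and 74.1%. Its nearest pair of plates lay only 2.52 points apart, and the intervals of its plates overlapped. Cdkn2c, which encodes p18, was at 34.4% and 40.2%, and Cdkn2a at 5.46% and 1.72%, both overlapping. Rb1, Rbl1 and Rbl2, whose products the CDKs phosphorylate, were at 57.4 and 60.3%, 69.9 and 69%, and 86.3 and 89.7%, and their plates overlapped.

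Of 4 genes of the p53 pathway 3 were measured, and 1 was higher with plates apart, 0 lower and 2 overlapping. Among all 96 assays 42.7% were higher with plates apart, so 1 of 3 is not above that share. Mdm2, which like Cdkn1a is a transcriptional target of p53, was higher at 5 weeks with plates apart, at 51.9% and 75.3%, where Cdkn1a was lower. Trp53 was found in every cell and ndn, which encodes the growth suppressor necdin, in 60.1% and 66.1% with plates overlapping. Within the 2-week plates, Mdm2 was detected in 13 of 22 cells with Cdkn1a (59.1%, 36.4 to 79.3%) and in 50.9% of those without it (42.9 to 58.9%). The pair's rho was 0.10 and 0.15 on those plates, a weak value.

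Of 8 genes of S phase and proliferation 2 were measured, and their plates overlapped. Cdt1, a licensing factor of replication, was at 50.8% and 44.8%, and GMNN, its inhibitor geminin, at 40.4% and 37.9%. Most Cdt1 products came later than Ct 18, 72% at 2 weeks and 67.9% at 5 weeks. Of 8 regulators linked to the inhibitors 3 were measured. Gfi1, a repressor that restrains HSC proliferation, was lower at 5 weeks with plates apart, at 13.7% and 8.05%, while Myc (81.4 and 81.6%) and Egr1 (41 and 38.5%) overlapped. Over the 5 lists 21 of 38 genes were measured, of which 5 were higher, 1 lower and 15 overlapping, beside 42.7% higher and 7.29% lower over all 96 assays.

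Next, the assays whose values followed each inhibitor most closely over the cells of a plate were sought, by Spearman's rho on the weakest plate. These values describe cells that share a plate and whose reference Ct also varied, and no test was made on them. For Cdkn1c the 3 closest assays were Cbx6, a Polycomb gene, Tgm2, a transglutaminase, and Mllt3, a chromatin cofactor known for the upkeep of HSCs. Spearman's coefficient with Cdkn1c lay between 0.18 and 0.37 on the 4 plates for Cbx6, between 0.17 and 0.24 for Tgm2 and between 0.14 and 0.41 for Mllt3. Pearson's r lay between 0.10 and 0.28, 0.02 and 0.30, and 0.08 and 0.29.

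Among cells with both products, rho of Cdkn1c with Mllt3 was 0.34, 0.40, 0.34 and 0.38 over 43, 45, 49 and 46 cells. It lay between 0.14 and 0.42 for Cbx6 and between 0.03 and 0.28 for Tgm2. These assays had been picked by their rho over the same plates, so the values are no separate check. The reference Ct was not taken out of them. With the rank of the reference Ct taken out, rho over all cells lay between 0.14 and 0.38 for Mllt3 and between 0.23 and 0.38 for Cbx6. Cdkn1c itself followed the reference Ct with rho 0.01 and 0.08 on 2-week plates 1 and 2, and 0.21 and -0.06 on 5-week plates 1 and 2. A positive value here means more product at a lower reference Ct.

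At the other end, Cdkn1c varied against Cd34, a surface protein low on many adult HSCs, with rho between -0.36 and -0.16 (r -0.26 to -0.13). With the reference Ct taken out the range was the same, -0.36 to -0.16, and among cells with both products it was -0.39 to -0.11. Flt3, a receptor of multipotent progenitors, was at -0.17 to -0.04 and IKZF2, which encodes Helios, at -0.23 to -0.04. Of 80 assays 20 were positive and 6 negative with Cdkn1c on every plate. Among the cell cycle lists and the regulators, CDK6 (-0.34 to -0.04), Cdkn2c (-0.27 to -0.03) and Myc (-0.21 to -0.04) were negative on each plate. There ndn (0.13 to 0.23), Rbl2 (0.03 to 0.20), Ccnd1 (0.02 to 0.19) and Egr1 (0.02 to 0.17) were positive on each. With the reference Ct taken out, Rbl2 and Ccnd1 no longer had 1 sign on all plates. Among cells with both products the sign varied between plates for CDK6 (-0.29 to 0.22), Cdkn2c (-0.43 to 0.15) and Myc (-0.38 to 0.12). It varied as well for Flt3, IKZF2, ndn, Ccnd1 and Egr1, while Rbl2 stayed positive (0.08 to 0.27).

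The 3 assays closest to Cdkn1b were Meis1, a homeobox gene of HSCs (0.17 to 0.27), ndn (0.13 to 0.26) and Gapdh (0.12 to 0.30). Pearson's r lay between -0.003 and 0.24, 0.07 and 0.20, and 0.09 and 0.26. Among cells with both products rho was 0.07 to 0.30 for Meis1 and 0.17 to 0.30 for Gapdh. For ndn it was -0.19 to 0.30, so its sign varied between plates. Gapdh and Meis1 are themselves among the reference assays, and with the reference Ct taken out they were at -0.02 to 0.20 and 0.04 to 0.19. Cdkn1b itself followed the reference Ct at 0.18 to 0.22. Its lowest partners were Ly6a, Hk3, a hexokinase gene, and Fos, and each of these came within 0.01 of 0 on the plate where it was highest. Of 80 assays 34 were positive and 1 negative with Cdkn1b on every plate, so a common positive sign was frequent. Mdm2 was among them at 0.10 to 0.17, and at 0.02 to 0.12 with the reference Ct taken out. So were CDK6, Ccnd3, Cdkn2d, Rbl1, Rbl2 and Trp53 of the lists. Of these, Cdkn2d and Rbl2 stayed positive on every plate with the reference Ct taken out. CDK4, also a reference assay, was at 0.04 to 0.33, and at -0.16 to 0.29 with the reference Ct taken out.

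**Figure D5:**
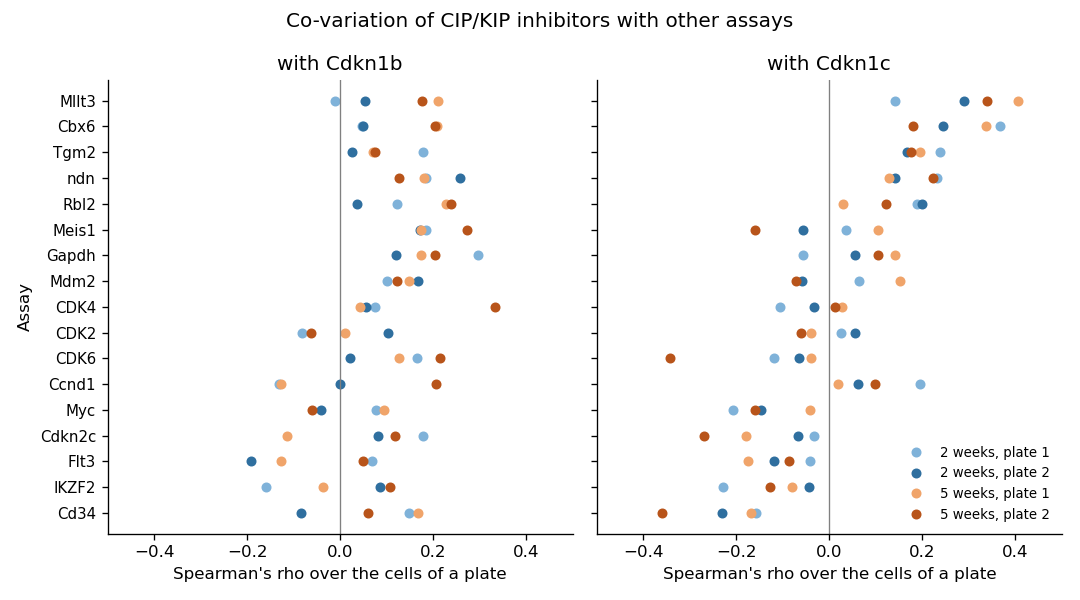
Spearman's rho (horizontal axis) of Cdkn1b and Cdkn1c with 17 assays, 1 point per plate. With Cdkn1c all plates lie above 0 for Mllt3, Cbx6 and Tgm2 and below 0 for Cd34, while with Cdkn1b all plates lie above 0 for Meis1, ndn, Gapdh and Mdm2.

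At 2 weeks, where Cdkn1b split the cells most evenly, CDK2, Ccnd1 and Mdm2 were compared between the cells with and without it, over both plates together. The plates did not share a direction for CDK2 and Ccnd1, so their pooled shares join opposite gaps. In that order CDK2 was found in 54.8 and 54.4% of cells, Ccnd1 in 40.9 and 46.7%, and Mdm2 in 55.9 and 47.8%. For Cdkn1c, ndn, chosen after its values were seen, was detected in 68.5 and 51.6% of cells with and without it at 2 weeks and 71.3 and 58.9% at 5 weeks.

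Cdkn1a could be followed only on the 2-week plates, over 90 and 93 cells of which 9 and 13 had the product. Its closest assays were Cbx6 (rho 0.19 and 0.19), Cdt1 (0.17 and 0.30) and Cdkn2c (0.16 and 0.18). Its lowest were Hoxb5, Trib2 and Zfp612, between -0.18 and -0.09, and at most 3 cells of a plate had both products of such a pair. The values are small and rest on 22 cells.

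Genes of the lists were found both more and less often in those 22 cells than in the other 2-week cells, and those given here were chosen after their values were seen. CDK2 was detected in 17 of them (77.3%, 54.6 to 92.2%) and in 51.6% of the other cells (43.6 to 59.5%). Cdt1 was detected in 16 of them (72.7%, 49.8 to 89.3%) and in 47.8% (39.9 to 55.8%), and Rbl1, which encodes p107, in 19 (86.4%, 65.1 to 97.1%) and 67.7% (59.9 to 74.8%). Ccne1 was detected in 6 of them (27.3%, 10.7 to 50.2%) and in 10.6% (6.27 to 16.4%). It was higher on both plates, at 22.2 and 8.64% on plate 1 and 30.8 and 12.5% on plate 2. Ccnd1 went the other way, at 36.4% (17.2 to 59.3%) and 44.7% (36.9 to 52.7%). Ccnd3, at 86.4% and 90.7%, and Gfi1, at 9.09% and 14.3%, were lower on both plates. The intervals of all these pairs overlapped. The difference stood on plate 2 for CDK2 and Rbl1. There CDK2 was found in 12 of 13 cells with Cdkn1a and 40 of 80 without it, against 5 of 9 and 53.1% on plate 1. The cells with Cdkn1a on plate 2 had a reference Ct lower by 0.39 cycles than the others and 2.99 more other assays detected, and the part of this in the higher shares was not tested.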

How the data were processed

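The values are threshold cycles as deposited by the authors, without normalization, where 999 stands for a reaction without product. Per the labels' protocols, lysed single cells went through reverse transcription, 22 cycles of multiplex pre-amplification, exonuclease, a 5-fold dilution and 30 cycles of EvaGreen PCR on a microfluidic array. How the Ct was set is not given in the sources used here. All 357 cells were mapped by their titles, and 0 of them were identical. A well was kept at 20% or more of assays detected, which removed 0 wells. Levels needed 10 detecting cells on each plate, and co-variation 10% of cells on every plate for the partner and 5 detecting cells on a plate for the inhibitor. Named genes were the inhibitors, the measured genes of the lists and the 3 highest and 3 lowest partners of each inhibitor. The members and lists were chosen with earlier results of these data known. Alternatives were other Ct limits, centrings, weights, covariates and left-out plates. The functions were checked on simulated plates. Python 3.11.15, pandas 2.3.3, scipy 1.17.1 and statsmodels 0.14.6 were used.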

Additional observations from a re-analysis of the deposited data

How the results depend on the processing

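The Cdkn1b difference in share kept its direction and moved by less than the spread of the plate comparisons under all 13 alternatives, with 33.7 to 41.8 points when a plate was left out. That of Cdkn1a moved by more only in the logistic fit with reference Ct, to -12.8 points, and lay between -11.1 and -7.13 with a plate left out. That of Cdkn1c was 1.74 points at Ct 18, 4.32 at Ct 20 and 3.71 with the number of other assays as covariate, and it reversed to -5.88 in the middle bin of reference Ct. The level difference of Cdkn1b was 0.50 without centring, 0.53 with Actb and Gapdh and 3.09 over all cells with undetected reactions at the limit. The plates were apart under these 3, while they overlapped for the reported 0.07. With a plate left out it lay between -0.11 and 0.24, and the plates were then apart without 5-week plate 1 or 2. That of Cdkn1c was -0.050 without centring, -0.20 with Actb and Gapdh, -0.67 without the cell cycle genes among the references, -0.14 at Ct 18, and it reversed to 0.11 over all cells. Levels over all cells mix share and level by construction, and the cause of the other shifts was not tested. The alternatives that take out the reference Ct or set Ct 18 for co-variation and combinations were chosen after seeing the data. No paired analysis was possible because the plates of the times share only a plate number and no test was made. The number of cells limits Cdkn1a most, with 27 detecting cells in all.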
